A study of Mus musculus with 4 samples.

Results

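The genes described here encode nuclear receptors, the coregulators that bind them, and subunits of the Mediator complex. They were taken by name: probe sets with a single gene symbol that starts with Nr and a digit (without Nr4a1, Nr4a2 and Nr3c2), Rxr, Ppar, Esr, Ncoa, Ncor or Med and a digit, together with Rara, Rarb, Rarg, Rora, Rorb, Thra, Thrb and Nrip1. The rule found 55 genes on 77 probe sets, of 8251 genes on 10833 probe sets with a single symbol. It found 14 clock and orphan receptors or their partners, 12 Mediator subunits, 8 coactivators and related cofactors, 7 thyroid hormone and retinoid receptors, 7 receptors of lipids, sterols and foreign compounds, and 5 steroid and estrogen-related receptors. The other 2, Esrp1 and Esrp2, match the letters of the rule but encode epithelial splicing regulators, which are neither receptors nor their cofactors. No probe set with an Ncor symbol was found.

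The tissue was left hippocampus, taken from males 12 months old, and its total RNA was hybridised to 4 arrays. There were 2 arrays from Tg2576 mice, which the labels call APPSw and which overexpress an amyloid precursor protein that carries the Swedish mutation, and 2 from nontransgenic control mice (C57B6/SJL). In the published Tg2576 line a hamster prion protein promoter drives the transgene, and all its cells carry it. The labels do not say whether the arrays of a group came from different animals, so p-values measure only the spread between these arrays, which may be partly technical. No value given here checks the transgene.

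Nuclear receptors are transcription factors that bind short DNA half-sites, and many are switched by a lipid-soluble ligand such as thyroid hormone, retinoic acid, a steroid or a fatty acid. Without ligand, several of them hold corepressors with histone deacetylases. With ligand they recruit coactivators of the Ncoa group and the Mediator complex, which links them to RNA polymerase II. In hippocampus, thyroid hormone and glucocorticoid receptors are known for effects on neuronal maturation, synaptic plasticity and the stress response.

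The values are MAS 5.0 signals on a linear scale, which the authors scaled to the same target on every array. The median signal was 1033 and 1013 on APPSw arrays 1 and 2, and 926 and 988 on control arrays 1 and 2. A probe set was kept for testing if its geometric mean signal over the 4 arrays reached 565, the 40th percentile. That kept 43 of the 77 member probe sets, which stand for 33 of the 55 genes. The members just inside this limit were Med12l (geometric mean 627), Ppara (656) and a probe set of Nr1i3 (852), and those just outside were Med11 (538), Ppargc1a (502) and a probe set of Ncoa6 (498). A log2 difference is APPSw minus control throughout, with limma's moderated standard error (SE), and p-values were adjusted by the Benjamini-Hochberg method over all 7453 kept probe sets.

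Most measured markers of hippocampal principal neurons were above the filter, and those of neighbouring tissue differed between arrays. Of 11 kept markers of hippocampal principal neurons, 10 lay below 0, with a median log2 difference of -0.40. The summed signal of the 12 measured ones was 79460.3 and 61940 on the APPSw arrays, against 95575 and 91924.5 on the control arrays. The lowest signal among them on any array was 257.7. Of 9 measured markers of the choroid plexus epithelium, 8 were brightest on APPSw 1, and their summed signal was 143098 and 20457 on APPSw arrays 1 and 2, against 26423 and 17215 on the controls. All 7 kept markers of meninges and fibroblasts and all 5 kept markers of neocortex lay above 0, with medians of 0.57 and 0.34. All 7 kept oligodendrocyte markers lay below 0, with a median of -0.28, and the summed signal of the 8 measured ones was 94499 and 78271 on the APPSw arrays, against 96856 and 102701 on the controls. The other lists had kept markers on both sides of 0. Interneurons had 4 above and 3 below, astrocytes 3 and 5, and microglia 6 and 2. Endothelium and mural cells had 2 and 4, striatum and thalamus 1 and 4, and hypothalamus 3 and 2. Among all kept probe sets 3927 lay above 0 and 3526 below. The part of these markers in the values below was not tested, and in bulk tissue fewer cells of a type and less RNA per cell cannot be told apart.

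Med1 had a signal 3.73-fold as high in APPSw as in control hippocampus, and Nrip1, Med27 and 1 probe set of Nr2c2ap were higher in both APPSw arrays too. Nr1d2, Ncoa5 and 1 probe set of Thra were lower in both. By limma 0 of the 43 kept member probe sets passed an adjusted p of 0.05, as did 0 of all 7453 (0%), and the lowest adjusted p was 0.599 in both. At an unadjusted p under 0.05 there were 7 members, 16.3% of those kept, against 8.05% of all kept probe sets. Of the 7, 4 were higher (9.30%, against 4.72% of all) and 3 lower (6.98%, against 3.33% of all). Without control 2 these counts were 3 and 0, without control 1 they were 2 and 2, and without APPSw 2 they were 2 and 2.

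The members as a whole had no common direction. Their log2 differences ran from -0.64 to 1.90, with 23 above 0 and 20 below. The median was 0.0065, against 0.018 over all kept probe sets, and the median size without its sign was 0.23, against 0.19. Both APPSw arrays lay above both controls for 11 of the 43 kept probe sets (22.2% of all kept probe sets did so), and below both for 9 (19% of all). In either direction that made 20 of 43 (46.5%), against 41.2% of all. Between arrays of the same group a kept member differed by a median of 1.17-fold in APPSw and 1.13-fold in controls, and all kept probe sets by 1.18-fold and 1.14-fold. With an array left out, the sign turned in at least 1 of the 4 fits for 17 of the 43. None were among the 7 at an unadjusted p under 0.05, whose groups did not overlap, so that their signs could not turn. With 2 arrays a group, an exact permutation test of a single gene cannot give a two-sided p below 0.333.

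**Figure D1:**
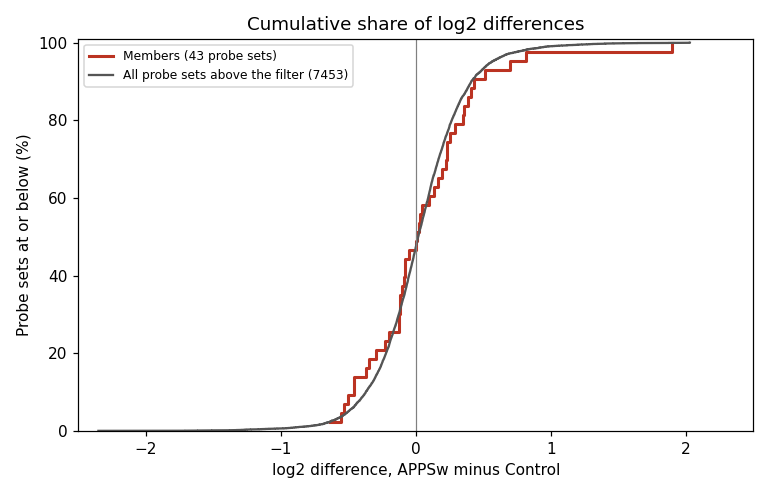
Share of probe sets (percent, vertical axis) whose log2 difference, APPSw minus control, is at or below the value on the horizontal axis, for the 43 kept members (thick line) and all 7453 kept probe sets (thin line). The lines lie close together around 0, and the last step of the members' line, at 1.90, is Med1.

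Mediator is a large complex of head, middle and tail modules with a detachable kinase module, and it passes signals from bound receptors to RNA polymerase II. Of its 12 member genes 10 were kept, on 12 probe sets, 6 above 0 and 6 below, with a median of -0.03. Med1 is the subunit through which many liganded nuclear receptors contact the complex. It had signals of 2943 and 3043 on the APPSw arrays, against 545 and 1181 on the control arrays. The APPSw arrays were close to each other while the controls were 2.17-fold apart, and control 1 alone lay under the signal of 565. The log2 difference was 1.90 (SE 0.37, 95% interval 0.98 to 2.82, limma unadjusted p = 0.0025, adjusted p = 0.599). With an array left out it ran from 1.34 to 2.46.

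Med27, a subunit at the junction of head and tail, had signals of 11045.5 and 11698.5 in APPSw, against 8145 and 7824 in controls, so each pair was tight and the groups did not overlap. Its log2 difference was 0.51 (SE 0.17, 95% interval 0.09 to 0.93, limma unadjusted p = 0.025, adjusted p = 0.599). Its probe set carries the suffix r, which the manufacturer gives where some rules of probe choice were dropped.

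Other Mediator subunits lay on the other side of 0. Med10, of the middle module, had signals of 2252 and 2766 in APPSw, against 3677 and 3177 in controls, a log2 difference of -0.45 (SE 0.198, 95% interval -0.94 to 0.04). Med12l, a paralog of the kinase module scaffold Med12, had 516 and 527 in APPSw, against 604 and 941 in controls. Its difference was -0.53 (SE 0.25), and -0.21 without control 2. Both APPSw signals of Med12l lay under the filter's signal, and only its controls lifted the geometric mean above it. For Med10 and Med12l the groups did not overlap. Med11, of the head, and Med14, the backbone that joins the modules, were under the filter and also lower on both APPSw arrays. Med11 had 412 and 465 in APPSw, against 672 and 649 in controls, and Med14 had 302.5 and 203 in APPSw, against 335 and 426 in controls.

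The remaining kept subunits overlapped between the groups. Med12, the scaffold of the kinase module, differed by -0.08 (95% interval -0.51 to 0.35) and Med28, which belongs to the head, by 0.23 (-0.26 to 0.73). Med23 and Med24, both of the tail, differed by -0.12 (-0.66 to 0.43) and -0.10 (-0.67 to 0.47). The probe sets of Med22, of the head, gave 0.02 and 0.05. Those of Med20, also of the head, gave -0.55 (SE 0.33) and 0.41 (SE 0.40), and neither 95% interval left out 0. The signs of Med12, Med20 (the second probe set), Med22, Med23 and Med24 turned with an array left out.

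**Figure D2:**
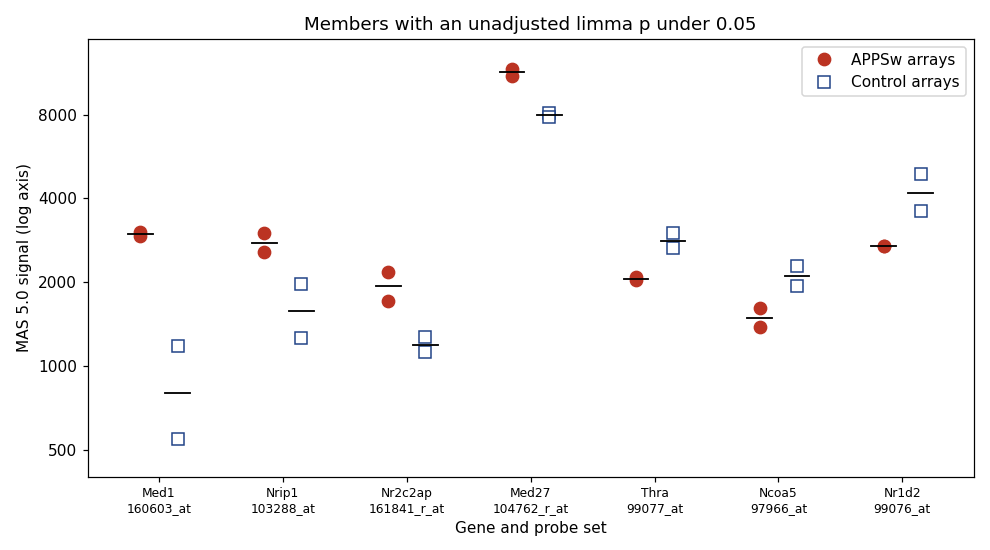
MAS 5.0 signal (log axis) of the 7 member probe sets with an unadjusted limma p under 0.05, with APPSw arrays as filled circles, control arrays as open squares and a bar at each geometric mean. The groups do not overlap for any of the 7, and the controls of Med1, at 545 and 1181, are the pair farthest apart.

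Among coactivators and related cofactors, 7 of 8 genes were kept, with 3 above 0 and 4 below. Nrip1, which encodes the corepressor RIP140 that binds liganded receptors, had signals of 2566 and 2998 in APPSw, against 1262 and 1967 in controls. Both APPSw arrays were above both controls, although the controls themselves were 1.56-fold apart. The log2 difference was 0.82 (SE 0.26, 95% interval 0.17 to 1.46, limma unadjusted p = 0.022, adjusted p = 0.599), and 0.50 without control 1. Ncoa5, a coregulator described as acting on estrogen receptor, had 1611 and 1379 in APPSw, against 1945.5 and 2283 in controls, a difference of -0.50 (SE 0.19, limma unadjusted p = 0.042, adjusted p = 0.610).

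The p160 coactivators Ncoa1, Ncoa2 and Ncoa3, which bring histone acetyltransferases to liganded receptors, did not share a sign. Ncoa3 had 1053 and 1309 in APPSw, against 847 and 990.2 in controls, a difference of 0.36 (SE 0.20), and Ncoa1 differed by 0.25 (SE 0.17). The groups did not overlap for either, while for Ncoa2 they did, at -0.198 (SE 0.24). Ncoa6, a further coactivator, differed by -0.29 (SE 0.19) by its kept probe set, and by 0.22 with overlapping groups by the one under the filter. Ncoa4, best known for delivering ferritin to the lysosome, had 3154 and 3666 in APPSw, against 3678 and 3751 in controls, a difference of -0.13 (SE 0.18). Its probe set under the filter went the other way, with 128 and 133 in APPSw, against 108 and 118 in controls (0.21). Ppargc1a, the PGC-1 alpha coactivator of mitochondrial genes, was just under the filter with 637 and 631 in APPSw, against 458 and 344.5 in controls, so the groups did not overlap.

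The clock and orphan receptors included the pair Nr1d1 and Nr1d2, which encode REV-ERB alpha and beta, heme-binding repressors of the circadian clock. Nr1d2 had signals of 2697 and 2703 in APPSw, against 3599 and 4906 in controls. The APPSw arrays were nearly equal and both below the controls, which were 1.36-fold apart. The log2 difference was -0.64 (SE 0.21, 95% interval -1.16 to -0.11, limma unadjusted p = 0.025, adjusted p = 0.5997), and -0.41 without control 2. Nr1d1 had 1271 and 1883 in APPSw, against 1106 and 1192 in controls, a difference of 0.43 (SE 0.24, adjusted p = 0.634) that was 0.15 without APPSw 2. Rora, the activator that binds the same DNA element, differed by 0.0040 (95% interval -0.74 to 0.75) by its kept probe set. By the one under the filter it differed by 0.85, with overlapping groups. The sources used here do not give the time of day at which tissue was taken.

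The 250 bases upstream of the start sites of these paralogs are shown because their signals lay on opposite sides of the controls, beside those of Med1, the member with the lowest p. They come from RefSeq on GRCm38.p6 and run 5′ to 3′ on the gene's strand, which is the minus strand for all of them. Capitals mark the nuclear receptor half-site AGGTCA and the GC box core GGGCGG, searched on both strands. The windows are chr14:18239107-18239356 for Nr1d2, chr11:98775378-98775627 for Nr1d1 and chr11:98192907-98193156 for Med1.
Nr1d2: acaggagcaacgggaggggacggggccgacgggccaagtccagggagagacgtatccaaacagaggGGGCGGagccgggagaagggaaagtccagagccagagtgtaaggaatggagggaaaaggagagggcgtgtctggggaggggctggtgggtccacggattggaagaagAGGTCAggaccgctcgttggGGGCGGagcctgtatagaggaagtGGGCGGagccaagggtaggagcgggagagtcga
Nr1d1: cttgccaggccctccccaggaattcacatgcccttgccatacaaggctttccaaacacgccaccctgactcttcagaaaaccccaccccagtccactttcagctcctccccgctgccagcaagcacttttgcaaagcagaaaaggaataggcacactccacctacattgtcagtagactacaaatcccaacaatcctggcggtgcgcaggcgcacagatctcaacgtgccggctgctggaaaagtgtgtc
Med1: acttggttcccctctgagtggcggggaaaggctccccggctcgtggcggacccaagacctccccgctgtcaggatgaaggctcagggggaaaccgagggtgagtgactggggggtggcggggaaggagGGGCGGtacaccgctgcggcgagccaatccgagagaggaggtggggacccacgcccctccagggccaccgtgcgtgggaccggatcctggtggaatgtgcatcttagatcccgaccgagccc

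The Nr1d2 window holds 1 half-site, whose first base lies at -77 from the start, and 3 GC box cores. The Nr1d1 window holds 0 of either, and that of Med1 holds 1 GC box core and 0 half-sites. Among the 67 upstream windows of the 46 member genes in the table, 15 (22.4%) hold a half-site and 30 (44.8%) a GC box core, against 14.0% and 32.7% of all 32851 windows. A match of letters is a description and not a bound site.

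Nr2f1 and Nr2f2 encode COUP-TFI and COUP-TFII, which shape forebrain areas and neuron identity. Nr2f1 had 3954 and 3874 in APPSw, against 5580.0 and 4559.5 in controls, a difference of -0.37 (SE 0.19). Nr2f2 had 2449 and 2836 in APPSw, against 2009 and 2130.4 in controls, a difference of 0.35 (SE 0.18) by its kept probe set. That probe set carries the suffix r, as that of Med27 does. The groups did not overlap for either gene, the adjusted p was 0.620 for both, and the dimmer Nr2f2 probe set differed by -0.45.

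Nr2c2ap encodes a protein that binds the orphan receptor Nr2c2, also called TR4. Its dimmer kept probe set, of the r kind, had 2174 and 1718 in APPSw, against 1270.1 and 1120.4 in controls, a difference of 0.70 (SE 0.20, limma unadjusted p = 0.015, adjusted p = 0.599). Its other probe set had 3064 and 2398 in APPSw, against 3026 and 2726 in controls, a difference of -0.08 (SE 0.20). The groups overlapped by that probe set.

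Nr2c1, the relative of Nr2c2, differed by 0.0065 (95% interval -0.43 to 0.44), and Nr2f6 by -0.12 (-0.55 to 0.32). Nr5a1 encodes steroidogenic factor 1, which in brain marks the ventromedial hypothalamus. Its 3 kept probe sets differed by 0.23, 0.14 and -0.08, and their groups overlapped. The last of them had signals of 13421 and 12364 in APPSw, against 13114 and 14133 in controls. The first 2 stayed at or below 1111 on every array, and the 2 under the filter at or below 480. These probe sets therefore do not settle the level of this gene.

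Thra, the thyroid hormone receptor alpha, was lower on both APPSw arrays by both of its probe sets. The first had signals of 59601 and 52197 in APPSw, against 68195 and 73359 in controls, a log2 difference of -0.34 (SE 0.18, 95% interval -0.78 to 0.10, limma adjusted p = 0.620). The second had 2079.5 and 2034 in APPSw, against 3002 and 2652 in controls, a difference of -0.46 (SE 0.17, limma unadjusted p = 0.041, adjusted p = 0.610). With an array left out, the values ran from -0.44 to -0.25 and from -0.55 to -0.37. Thrb, the beta receptor, was under the filter with 753 and 195 in APPSw, against 247 and 799.9 in controls, so its arrays were spread widely in both groups.

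In the RefSeq gene order Med24, Thra and Nr1d1 follow each other on chromosome 11, and the spans of Thra and Nr1d1 overlap. Med24 differed by -0.10, Thra by -0.34 and -0.46, and Nr1d1 by 0.43, so these neighbours did not move one way. The sources used here do not say where the probes lie relative to the overlap.

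The retinoid X receptors pair with thyroid, retinoic acid, PPAR and LXR receptors on DNA. Rxra was a little higher on both APPSw arrays by both of its probe sets. The first had 3462 and 2838 in APPSw, against 2829 and 2555 in controls (log2 difference 0.22, SE 0.19), and the second 2043 and 1648 in APPSw, against 1453 and 1553 in controls (0.29, SE 0.19). Rxrb overlapped at -0.12 (95% interval -0.61 to 0.36), and was 0.033 without APPSw 2. Rxrg and the retinoic acid receptors Rara and Rarg were under the filter, with signals at or below 176.2 on every array.

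Of the receptors of lipids and sterols, Ppara, the regulator of fatty acid oxidation, was kept with 889 and 633.5 in APPSw, against 509 and 645 in controls, a difference of 0.39 (SE 0.24, limma adjusted p = 0.659). Its groups overlapped. Nr1i3, the xenobiotic receptor CAR of liver, had 3 kept probe sets that differed by 0.19, 0.03 and -0.23. The last had 1871 and 673 in APPSw, against 1261 and 1375 in controls, so the APPSw arrays lay on either side of the controls. Ppard, Pparg, Nr1h3 (LXR alpha), Nr1h4 (FXR) and Nr1i2 (PXR) were under the filter.

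Among steroid and estrogen-related receptors Esrra, an orphan that works with PGC-1 alpha on mitochondrial genes, was the single gene kept. Its probe sets differed by 0.09 (SE 0.17) and -0.05 (SE 0.20), with overlapping groups. The first had 1764 and 1654 in APPSw, against 1538.5 and 1664 in controls. The second had 5807 and 4509 in APPSw, against 5059 and 5537 in controls. Nr3c1, the glucocorticoid receptor, was under the filter with 505 and 361 in APPSw, against 433 and 658 in controls. Esrp2, a splicing regulator, differed by 0.17 (SE 0.23), with 1008 and 887 in APPSw, against 702 and 1009.8 in controls.

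**Figure D3:**
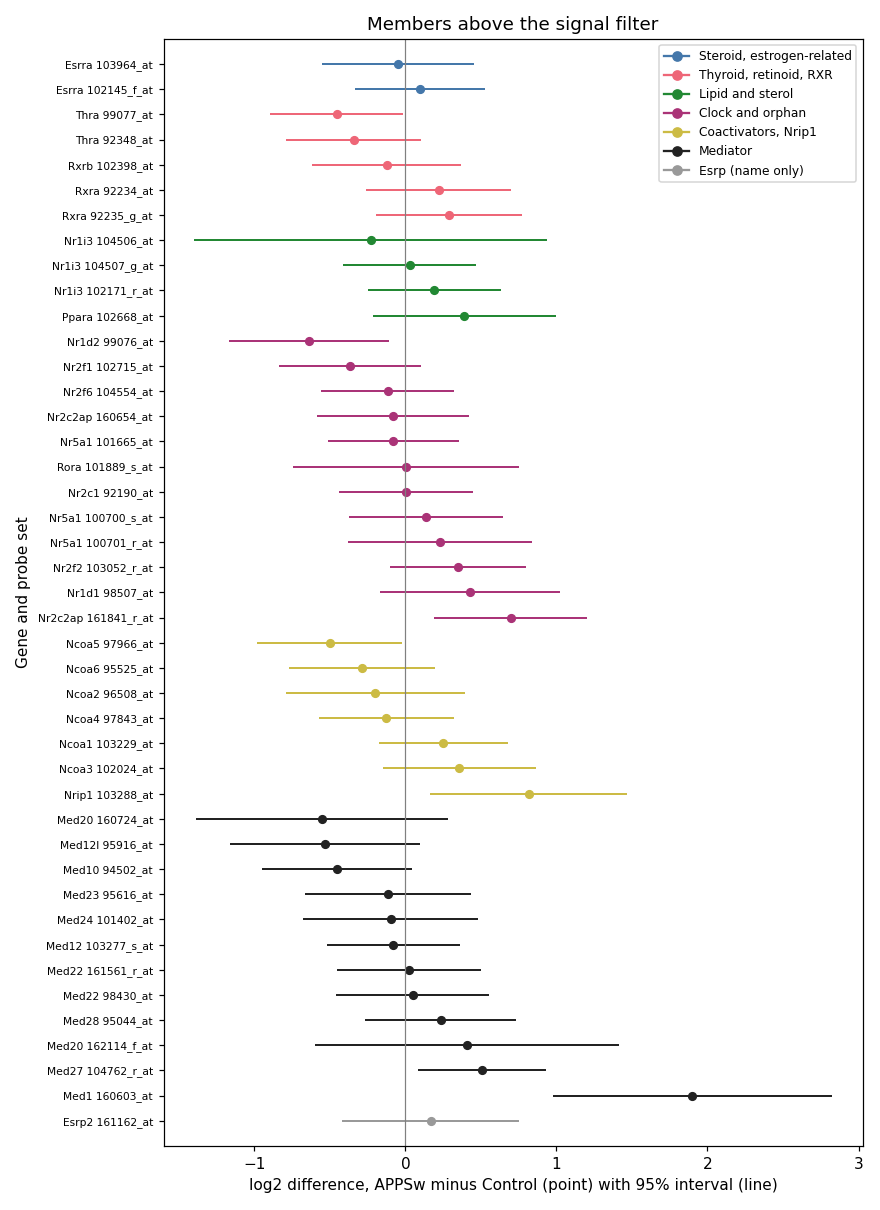
Log2 difference, APPSw minus control, of the 43 kept member probe sets (points) with 95% intervals from limma (lines), grouped and coloured by role. The intervals of Med1, Nrip1, Nr2c2ap (1 probe set) and Med27 lie above 0, those of Nr1d2, Ncoa5 and Thra (1 probe set) lie below 0, and the other 36 include 0.

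The 34 member probe sets under the filter, which hold all probe sets of 22 genes, were not tested, and MAS 5.0 detection calls were not used here. In 12 of the 34 (35.3%) both APPSw arrays lay above both controls, and in 4 (11.8%) below. Of all probe sets under the filter 25.8% were higher in this way and 10.7% lower. After quantile normalization 6 were higher and 6 lower, and of all probe sets under the filter 17.3% were higher and 17.2% lower.

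Pparg, the receptor of fat cell differentiation, had signals of 284 and 141 in APPSw, against 19.7 and 20.6 in controls. Nr5a2, the liver receptor homolog, had 206 and 135 in APPSw, against 31.4 and 24.3 in controls by 1 probe set, and 452 and 275 in APPSw, against 187 and 406 in controls, by the other. Both probe sets of Nr0b1 (DAX1), which represses Nr5a1, were higher in APPSw, at 285 and 208 in APPSw against 111 and 50.2 in controls, and at 174.0 and 361 in APPSw against 158 and 107 in controls. After quantile normalization Pparg, the first probe set of Nr5a2 and the first of Nr0b1 were still apart, and the second of Nr0b1 was not.

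Esr1, the estrogen receptor alpha, had 4 probe sets under the filter, of which 2 were higher in both APPSw arrays and 2 overlapped. One of those that overlapped had 23.6 and 34.9 in APPSw, against 180.1 and 22.4 in controls. Esr2 had 55.9 and 65.3 in APPSw, against 33.7 and 30.4 in controls. After quantile normalization 1 of the 4 Esr1 probe sets and that of Esr2 were still apart. A few dim members stood out on APPSw 1 alone, the array on which choroid plexus markers summed to 143098 against 20457 on APPSw 2. Esrrb, an estrogen-related orphan, had 622 and 181 in APPSw, against 161 and 108 in controls, and its groups overlapped after quantile normalization. Esrp1 had 499.6 and 37.7 in APPSw, against 38.3 and 37.3 in controls. The part of the choroid plexus in these values was not tested.

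**Figure D4:**
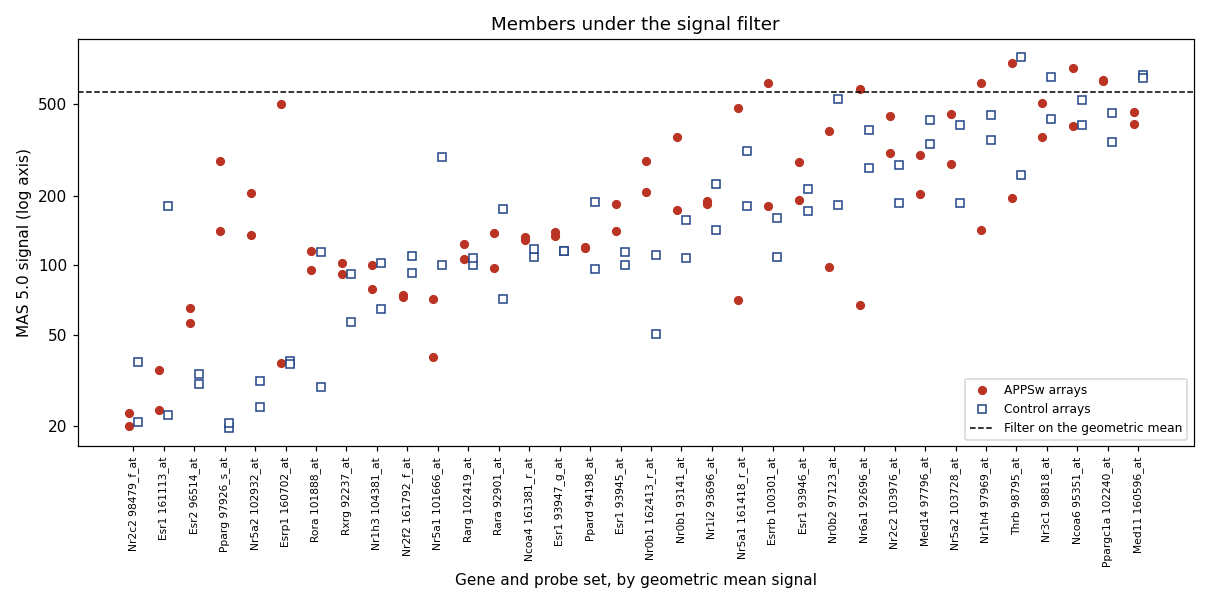
MAS 5.0 signal (log axis) of the 34 member probe sets under the filter, ordered by geometric mean, with APPSw arrays as filled circles, control arrays as open squares and the filter's signal of 565 as a dashed line. The widest gap between the groups is that of Pparg, at 284 and 141 in APPSw and 19.7 and 20.6 in controls.

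Genes that supply ligands to these receptors or answer to them were followed on fixed lists, and 0 of their kept genes passed limma's adjusted threshold. The counts at an unadjusted p under 0.05 below are to be read against 4.72% higher and 3.33% lower among all kept probe sets. For thyroid hormone transport, deiodination and response, 11 of 14 genes were measured and 10 kept, with 0 higher and 1 lower at that level and a median of 0.01. The lower one was Nrgn, neurogranin, a postsynaptic calmodulin-binding protein known to respond to thyroid hormone. It had 14117 and 9474 in APPSw, against 19476 and 18466 in controls, a difference of -0.71 (SE 0.24), and it is also among the principal neuron markers above. Dio2, which activates thyroxine, differed by -0.35 (SE 0.18) and Hr, a thyroid-responsive corepressor, by 0.35 (SE 0.197). The largest difference on the list was that of Ttr, at 2.00 (SE 1.55), which is also among the choroid plexus markers above. Its signals were 83384 and 3235.5 on APPSw arrays 1 and 2, against 8908 and 1896 on the controls.

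Of the retinoid genes 4 of 15 measured were kept, 1 higher and 1 lower at an unadjusted p under 0.05. Rbp4, the plasma carrier of retinol, had 1757.5 and 1311 in APPSw, against 846 and 864 in controls, a difference of 0.83 (SE 0.21, limma adjusted p = 0.599). Adh7, a retinol-oxidizing dehydrogenase, had 1377 and 1332 in APPSw, against 2508 and 2689 in controls, a difference of -0.94 (SE 0.17, limma adjusted p = 0.599). Aldh1a1, which makes retinoic acid, differed by 0.29 (SE 0.31), and by -0.055 without APPSw 2.

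Targets of the glucocorticoid, PPAR, LXR and FXR receptors held 0 genes in either direction at that level. Their medians were 0.06 over 14 kept genes for glucocorticoid response and chaperones, 0.14 over 12 for PPAR targets and 0.05 over 10 for LXR and FXR targets. Among them the period gene Per1 had 1803 and 2004 in APPSw, against 2328 and 2798 in controls, a difference of -0.43 (SE 0.19). The kinase gene Sgk1 and the metallothionein gene Mt2 differed by 0.34 (SE 0.31) and 0.27 (SE 0.24), and by -0.066 and -0.0051 without control 2. The cholesterol exporter gene Abca1 differed by 0.28 (SE 0.18), Lpcat3, a phospholipid enzyme, by 0.33 (SE 0.23), and the fatty acid synthase gene Fasn by -0.22 (SE 0.18). Lpl, Pdk4 and Plin2, of fat uptake, fuel choice and lipid droplets, differed by 0.22 (SE 0.17), -0.35 (SE 0.24) and -0.35 (SE 0.27). With an array left out, Pdk4 ran from -0.62 to -0.077 (without APPSw 2) and Plin2 from -0.62 to -0.072 (without control 2).

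Of 25 kept coregulators outside the naming rule 0 were higher and 2 lower at an unadjusted p under 0.05, with a median of -0.08. Tbl1xr1, a subunit of the corepressor complex that holds histone deacetylase 3, had 2649 and 2737 in APPSw, against 3461 and 3843 in controls, a difference of -0.44 (SE 0.17). Cited2, which binds the acetyltransferases CBP and p300, had 2174 and 2516 in APPSw, against 3326 and 3220 in controls, a difference of -0.48 (SE 0.18). Kdm1a, the histone demethylase LSD1, differed by 0.51 (SE 0.21). The limma adjusted p was 0.612, 0.609 and 0.612 for Tbl1xr1, Cited2 and Kdm1a.

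Of 26 kept genes of the Mediator kinase module and the RNA polymerase II machinery, 1 was higher and 0 lower at that level, with a median of 0.03. The higher one, the initiation factor gene Gtf2b, had 4931 and 4646 in APPSw, against 3583.5 and 3468 in controls, a difference of 0.44 (SE 0.17, limma adjusted p = 0.610). Gtf2h1, of the factor TFIIH, differed by 0.39 (SE 0.17) and Ccnt1, the cyclin of the elongation factor P-TEFb, by -0.52 (SE 0.21).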

How the data were processed

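Per the labels, the authors made the deposited values as MAS 5.0 signal intensities, 1 per probe set and array, scaled to a target of 2500. No aligner applies, and background settings and detection calls are not described in the labels. The table holds 12488 probe sets, of which 66 manufacturer's controls were left out. Symbols came from the platform annotation, and all 77 member probe sets were found under the same symbol in the RefSeq gene table (GRCm38.p6).

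Log2 signals entered limma (version 3.58.1, under R 4.3.3), with two-sided moderated tests from lmFit and eBayes, over the 7453 probe sets at or above the 40th percentile, with no further normalization, 2 residual and 3.70 prior degrees of freedom. The number of arrays, 2 a group, limits the precision. The fit was tested on simulated data in 20 runs. There, 87.8% of 4-fold and 11.15% of 2-fold differences passed the adjusted threshold, with 4.3 false calls per run. In these simulated data known differences were added to part of the probe sets, and spreads were drawn from limma's fitted prior. The shares therefore hold for that setting. A count of 0 past the threshold does not exclude differences of 2-fold or less in the real data, nor larger ones. Med1, at 3.73-fold, did not pass it. The members, gene lists and tests were chosen with earlier results of these data known. Each listed gene was represented by the probe set with the highest mean signal. Signals per array were to be given for kept members with an unadjusted p under 0.05, the 3 with the largest moderated statistic and the brightest member of each role, and the other probe sets of genes so named, plus up to 3 genes of each list. Other members, and those under the filter, were picked for naming after their values were seen.

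Alternatives were quantile normalization, no filter, the 60th percentile, a floor or a pseudocount of 250, a block for the replicate number, a prior variance that follows signal, averaging of a gene's probe sets, and leaving out each array. Quantile normalization of the count of groups that do not overlap was added after seeing the data.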

Additional observations from a re-analysis of the deposited data

How the results depend on the processing

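Under the alternatives 0 probe sets passed the adjusted threshold, members included, in each of the fits run per probe set. The lowest adjusted p among the members and named list genes was 0.190. The members at an unadjusted p under 0.05, 4 higher and 3 lower, became 7 higher and 1 lower with no filter, where dim probe sets enter, 2 higher and 4 lower with the filter at the 60th percentile, 4 higher and 5 lower with an intensity trend, and 2 to 4 higher and 0 to 2 lower with an array left out. With the replicate number as a block they were 3 higher and 1 lower. Arrays of the same number did not deviate together over the 7453 probe sets as a whole (r = -0.02 between APPSw 1 and control 1). This correlation cannot exclude a pairing that affects few probe sets, so whether the numbers pair the samples is not known. The median member difference was -0.080 at the 60th percentile and -0.060 to 0.14 with an array left out. At the 60th percentile 25 members entered the fit. Med1 and the higher Nr2c2ap probe set, both among the 4 higher, were not among these 25. The causes of the other changes were not tested.

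Of 680 values for the 43 kept members and 21 list genes, 650 kept their sign. Changes of filter, the floor, the block and the prior variance leave these differences as they were, so part of that count was fixed in advance. The 30 that turned came from quantile normalization or from leaving out an array. After quantile normalization Nr2c1 was -0.099, Rora -0.078 and the Nr1i3 probe set with a difference of 0.03 was -0.077. With an array left out, signs turned within these ranges: Nr2c1 -0.071 to 0.084, Nr2c2ap (the brighter probe set) -0.26 to 0.093, Nr5a1 -0.059 to 0.33 and -0.066 to 0.53, Rora -0.32 to 0.33, Ncoa2 -0.43 to 0.037, Nr1i3 -0.97 to 0.51 and -0.048 to 0.11. They also turned for Med12 (-0.17 to 0.0081), Med20 (-0.20 to 1.02), Med22 (-0.11 to 0.15 and -0.14 to 0.23), Med23 (-0.35 to 0.12), Med24 (-0.34 to 0.15), Esrp2 (-0.095 to 0.43), Esrra (-0.23 to 0.13), Rxrb (-0.28 to 0.033), Aldh1a1 (-0.055 to 0.63), Mt2 (-0.0051 to 0.55) and Sgk1 (-0.066 to 0.75). These fits give a group's single remaining array the spread of the other group's pair.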

Other observations

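Of the member genes, 8 had more than 1 kept probe set, and for 5 of them the probe sets differed in sign. Those of Rxra, Thra and Med22 shared a sign, at 0.22 and 0.29, -0.46 and -0.34, and 0.02 and 0.05. The widest disagreements were those of Med20, at -0.55 and 0.41, and Nr2c2ap, at -0.08 and 0.70. The others were Nr1i3, from -0.23 to 0.19, Nr5a1, from -0.08 to 0.23, and Esrra, at -0.05 and 0.09.

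The members lie on 20 chromosomes, with 9 genes on chromosome 2 and 6 on chromosome 11. Besides the run of Med24, Thra and Nr1d1, the receptors Nr5a1 and Nr6a1 are neighbours, on chromosome 2. Nr6a1, the germ cell nuclear factor, was under the filter and had signals of 581 and 67.0 in APPSw, against 385 and 264.0 in controls, so its APPSw arrays lay on either side of the controls. Half-sites stand upstream of 14 of the 46 member genes with a window. These are Med10, Med27, Med28, Ncoa4, Nr0b1, Nr1d2, Nr1h4, Nr5a2, Nr6a1, Pparg, Rarg, Rxra, Rxrg and Thrb. The 46 genes have 67 windows, and a share per gene over all genes was not computed. Per window the share was 22.4%, against 14.0% of all windows.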
